A study of Mus musculus with 12 samples.

Results

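The cytosolic ribosomal protein genes were examined in mouse bone marrow-derived macrophages that had met the bacterial cell wall component lipopolysaccharide (LPS) once, 2 times or never. Members were the genes whose array name is Rpl or Rps followed by a number, with an optional letter or paralog suffix, together with Rplp0, Rplp1, Rplp2 and Rpsa. Ribosomal S6 kinases and names marked as pseudogenes were left out. The rule gave 84 of the 35527 gene names on the array, and the probe with the highest mean signal stood for each gene. They comprised 43 proteins of the large (60S) subunit, 30 of the small (40S) subunit, 3 proteins of the P stalk and 8 paralogs, that is, extra gene copies named after another member. Of these, 82 were among the 20491 genes tested, and all 82 were well above background on all 12 arrays. The paralogs Rpl3l and Rpl10l were not well above background in any group and were not tested.

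Total RNA was labelled with a single dye and hybridised to 12 oligonucleotide arrays, 3 for each of 4 groups. Recovered cells were given LPS for 8 h, left for 88 h without it (so the descriptions, while the treatment protocol gives 2 to 4 days) and given LPS again for 4 h. Tolerant cells went through the same sequence with 16 h between the exposures. Acute cells had a single exposure to LPS for 4 h, and untreated cells had none. The marrow of female C57BL/6 mice, 6 to 8 weeks old, was the source of every group, and L929-conditioned medium drove differentiation over 7 days, so the groups also differ in total culture time. No cells rested without the second LPS, and no untreated cells kept for the longer times, were analysed here. The labels call the 3 arrays of a group independent experiments without saying whether each used separate animals, so p-values measure only the spread between these arrays.

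Ribosomal proteins coat the ribosomal RNA of the 2 subunits of the cytosolic ribosome and are made in near-equal amounts from highly abundant mRNAs. Most of these mRNAs begin at a C followed by an uninterrupted stretch of pyrimidines, the 5′ terminal oligopyrimidine (TOP) motif, through which the mTOR pathway and the RNA-binding protein Larp1 control their translation and stability. In macrophages LPS signalling feeds into mTOR, and translation of selected mRNAs is itself a regulated step of the inflammatory response. An array measures mRNA abundance and not translation. In bulk RNA, less of a transcript per cell and fewer cells that carry it cannot be told apart.

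Sequence windows near the start sites of 12 members whose values recur below are printed because the pyrimidine stretch is the sequence feature the family is known for. Each window holds 30 bases around the longest run of C or T that begins with C within 25 bases of the RefSeq start of the gene (GRCm38.p6), with that run in capitals. Only bases within 25 of the start were counted, so a run that passes this limit is cut there. The run of Rpl11 is cut in this way and goes on in small letters. Counted from the start, the runs of Rpl22l1, Rpl18 and Rpl11 begin at 4, 2 and 15. The other printed runs begin upstream, as at -19 in Rps15, -22 in Rps27l and -24 in Rpl7l1. Some windows therefore do not reach the start itself, and a run in capitals need not be a TOP motif of the mRNA. The first 8 genes fell in tolerant against acute cells and the last 4 did not pass that test.
Rpl22l1: gcaagcccgttCTCTTCCCacggctgcagc
Rps15: ggtggaggcgggCCCTCCCggcagagctcg
Rpl13: cgtgacgtcaCTTCCCTTTCgcctgatttt
Rpl10a: cgcgtggtggcgCCCCCCCagcggccgcaa
Rps18: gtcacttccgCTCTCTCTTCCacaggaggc
Rpl18: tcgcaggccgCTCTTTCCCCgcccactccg
Rps16: gccgtaaagcccgCTTCTgtcgtgacgtag
Rpl15: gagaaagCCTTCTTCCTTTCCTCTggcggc
Rpl22: tcccgacagccgaCTTCgccctgggaaaag
Rps27l: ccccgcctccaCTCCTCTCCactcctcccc
Rpl7l1: gcgggcctctctaCCCCgcccggtgaggct
Rpl11: ggccggaagtCTCCCTCTCTCttcctgttc
The windows lie at chr3:28805500-28805529 (plus strand) for Rpl22l1, chr10:80292400-80292429 (plus) for Rps15, chr8:123102324-123102353 (plus) for Rpl13 and chr17:28328450-28328479 (plus) for Rpl10a. Those of Rps18, Rpl18, Rps16 and Rpl15 lie at chr17:33955648-33955677 (minus), chr7:45718062-45718091 (plus), chr7:28350665-28350694 (plus) and chr14:18270968-18270997 (minus). Those of Rpl22, Rps27l, Rpl7l1 and Rpl11 lie at chr4:152325697-152325726 (plus), chr9:66946053-66946082 (plus), chr17:46782664-46782693 (minus) and chr4:136053360-136053389 (minus). RefSeq promoters were at hand for 63 members. A run of at least 8 such bases within 25 bases of the start was found in 30 of the 63 (47.6%), against 15.3% of 27025 promoters of the same length. It was in 6 of 13 windows of members that fell in tolerant against acute cells and in 24 of 48 windows of the other tested members. The ETS-type motif CCGGAAG, searched on both strands over 250 bases before to 50 after the start, was in 39.7% of the members' promoters and 9.12% of all. AAGATGG, part of a YY1 site, was in 14.3% of the members' promoters and 6.48% of all, and the TATA box letters TATAAA were in 9.52% and 14.2%. These matches describe the letters only.

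All 7 macrophage markers (such as Csf1r and Cd68) were well above background in every group. Of markers of other cells, 2 of 6 lymphocyte, 2 of 6 neutrophil, 2 of 5 dendritic cell, 2 of 5 stromal, 3 of 5 erythroid or platelet and 0 of 3 mast cell or basophil genes passed the filter on dim probes. Some of these moved between groups. The granule gene Camp was higher in tolerant than acute cells by 1.39 ± 0.26 (log2 fold change ± standard error), and the platelet chemokine Ppbp by 2.54 ± 0.46. Zbtb46, a dendritic cell factor, fell by 1.16 ± 0.32 (limma, adjusted p = 0.00352, 0.00279 and 0.0223). The other tested markers of these 3 lists were not called, with log2 fold changes of -0.30 ± 0.22 for the neutrophil gene Elane, -0.09 ± 0.20 for Siglech, -0.22 ± 0.27 for Hba-a1 and 0.77 ± 0.39 for Pf4 (adjusted p = 0.342, 0.793, 0.598 and 0.18). The summed signal of the neutrophil list ranged over 12.50 to 12.68 log2 units in recovered, 11.75 to 12.34 in tolerant, 12.05 to 12.53 in acute and 12.01 to 12.60 in untreated cells. That of the erythroid and platelet list ranged over 15.1 to 15.6, 13.5 to 14.6, 13.0 to 14.0 and 12.6 to 13.7 in recovered, tolerant, acute and untreated cells. The part of other cells in the ribosomal protein results was not tested. All 5 LPS response genes checked (Tnf, Il6, Cxcl10, Il1b, Ccl5) were higher in each LPS group than in untreated cells.

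Most ribosomal protein probes were bright, and the members' median level differed between arrays of 1 group. Values are log2 signals scaled to the 75th percentile of each array. The median over the 82 members was 16.61, 16.57 and 16.39 on recovered arrays 1, 2 and 3, 16.46, 16.46 and 16.18 on tolerant arrays, 17.05, 16.95 and 16.48 on acute arrays, and 16.95, 16.69 and 16.42 on untreated arrays. Array 3 was the lowest of its group in all 4 groups. The number 3 arrays shared a slide that was scanned on a later day, number 2 arrays and recovered array 1 shared another, and the other number 1 arrays shared the remaining one. Number and slide coincide except for recovered array 1, and results are given both without and with the number as a block. As a mean over the 3 arrays, the members' median deviation from their own 12-array mean was -0.03 ± 0.17 in recovered, -0.22 ± 0.16 in tolerant, 0.17 ± 0.31 in acute and 0.08 ± 0.24 in untreated cells (SD, n = 3 each).

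**Figure D1:**
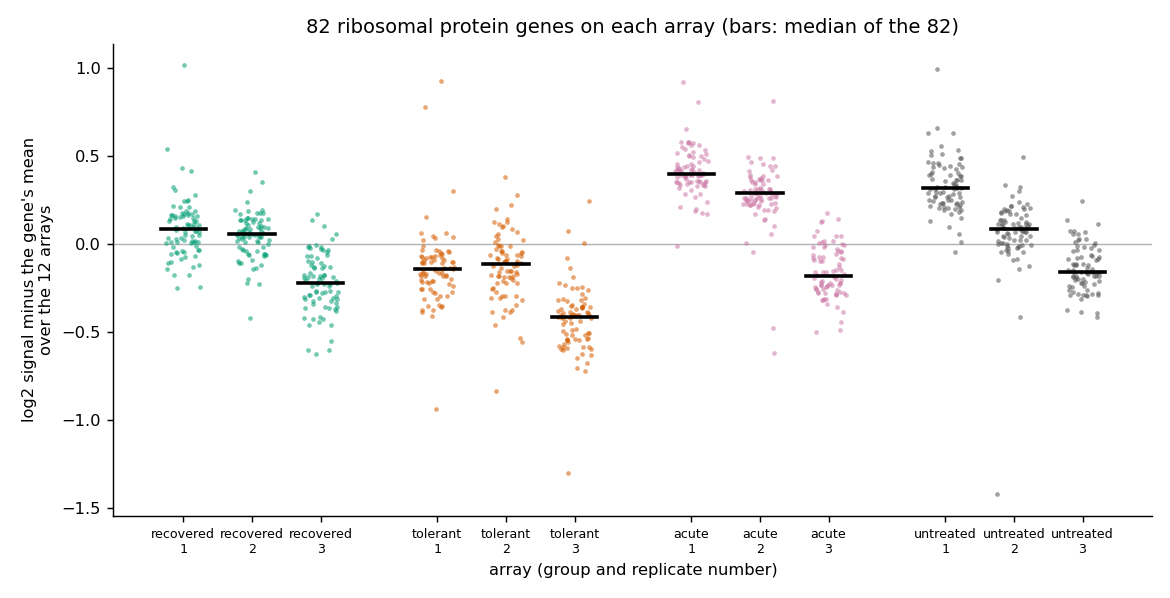
Each point is 1 of the 82 tested ribosomal protein genes on 1 array, as its log2 signal minus its mean over the 12 arrays, and bars are medians over the genes. Arrays are grouped as recovered, tolerant, acute and untreated with their replicate numbers, and array 3 is the lowest of each group.

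Tolerant cells had lower ribosomal protein mRNA levels than acute cells in nearly every member, by a median log2 fold change of -0.41, or 0.755 of the acute level. The difference was below 0 in 78 of 82 members, with a range of -1.64 to 0.43, while the median over all 20491 genes was -0.05. In the limma fit of all 12 arrays, 16 members (19.5%) fell and 0 rose once p was adjusted by Benjamini-Hochberg (threshold 0.05), where 10.7% of all genes were called lower and 12% higher. At an unadjusted p under 0.05 there were 36 of the 82 members and 7316 of all 20491 genes. With the experiment number as a block, 67 members (81.7%) were called lower and 1 higher, where 23.0% of all genes were called lower and 21.6% higher. With the slide as a block, 70 were called lower, where the share of all genes was 24.6%. The tolerant and acute arrays did not overlap in 32 members, all lower in tolerant cells (39.0%, against 18.3% of all genes).

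The shift was shared by both subunits. Of the large subunit genes 8 of 43 fell (36 with the block), with a median of -0.42, and of the small subunit genes 7 of 30 (28 with the block), with a median of -0.44. All 73 of these genes had a log2 fold change below 0. None of the 3 P stalk genes was called (2 with the block). Within number pairs, the median over the members was -0.55, -0.40 and -0.27 in experiments 1, 2 and 3, each pair being on 1 slide, and 79, 78 and 78 of the 82 genes were below 0. The count depended on single arrays: without acute array 3 it was 40 lower, and without acute array 1 it was 4.

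Other bright genes also had a median below 0. The 393 non-member genes whose mean signal lies between the members' quartiles (15.93 and 17.26 log2 units) had a median of -0.32. Of the 393, 51 were called lower, where the share of all genes was 10.7%, and 206 with the block, where it was 23.0%. The signal level of a gene's probe thus went with the result, and its part in the result was not tested.

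**Figure D2:**
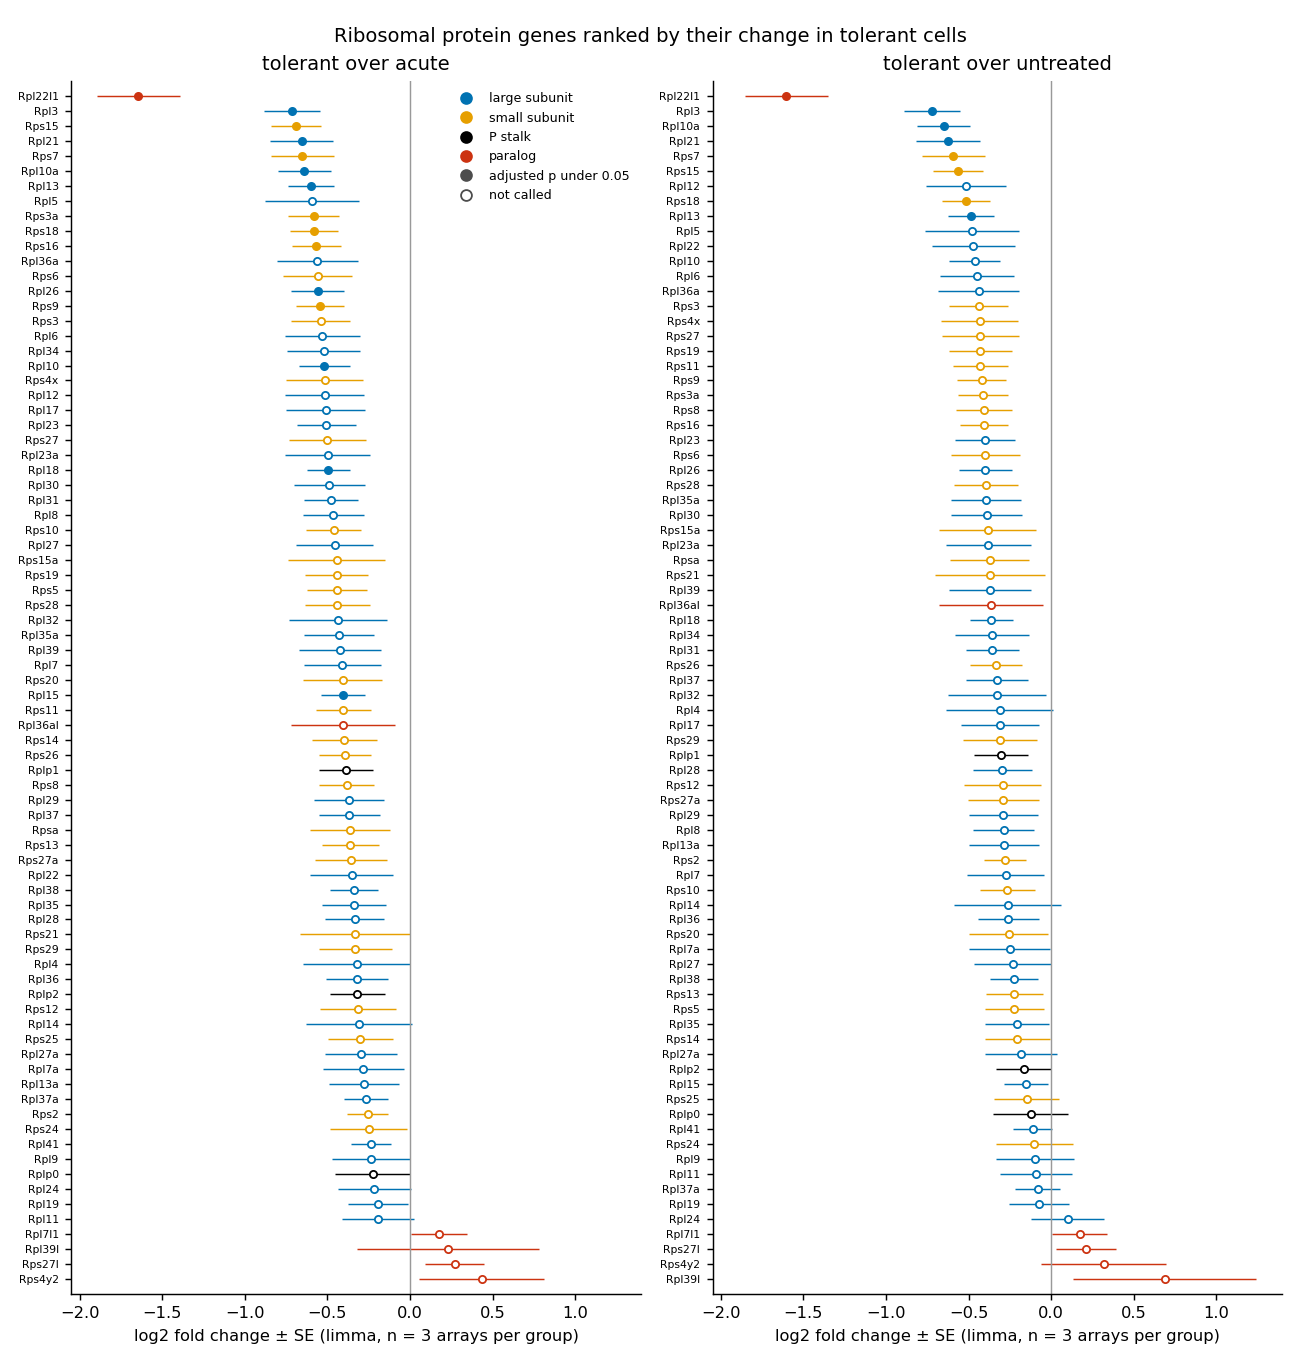
The log2 fold change ± standard error of 80 of the 82 tested members is drawn for tolerant over acute cells (left) and tolerant over untreated cells (right), ranked from lowest at the top to highest. Filled points passed an adjusted p of 0.05 in limma, colours give the subunit, and the paralog Rpl22l1 stands apart at -1.64 and -1.60.

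Rpl22l1, a paralog that can take the place of Rpl22 in the 60S subunit, changed most. Its log2 signal was 14.03, 13.99 and 13.73 in recovered cells, 13.15, 13.25 and 12.78 in tolerant cells, 15.01, 14.89 and 14.21 in acute cells, and 15.08, 14.58 and 14.33 in untreated cells. Every tolerant array lay below every recovered array, and every recovered array below every acute and untreated array. In tolerant against acute cells it fell by 1.64 ± 0.25 on the log2 scale, to 0.320 of the acute level (limma, adjusted p = 0.00102), and the differences within experiments 1, 2 and 3 were -1.86, -1.65 and -1.43. Against untreated cells it fell by 1.60 ± 0.25 (adjusted p = 0.000953). Both calls held in all 22 alternative settings. Its single probe lies on chromosome 3 at 28706237 to 28706296 (mm9) and shares 30 bases with a probe of another name, so that signal from that locus cannot be told apart.

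Rpl22 itself, an RNA-binding 60S protein, had log2 signals of 15.73, 15.81 and 15.20 in tolerant cells, against 16.21, 16.08 and 15.51 in acute cells and 16.35, 16.05 and 15.75 in untreated cells. The groups overlapped. Its log2 fold change was -0.35 ± 0.25 against acute and -0.47 ± 0.25 against untreated cells (limma, adjusted p = 0.341 and 0.233), and 0.0203 and 0.00614 with the block. Whether the paralog and Rpl22 differ in their change was not tested.

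Rpl3, a 60S protein close to the peptidyl transferase centre, had log2 signals of 15.61, 15.49 and 15.72 in tolerant cells, against 16.54, 16.40 and 16.02 in acute cells and 16.54, 16.35 and 16.10 in untreated cells. The tolerant arrays overlapped neither other group. Rpl3 fell by 0.71 ± 0.17 against acute and by 0.72 ± 0.17 against untreated cells (limma, adjusted p = 0.0113 and 0.0108), and both calls held in all 22 settings. Its probe lies on chromosome 15 between 79908489 and 79908772 (mm9) and shares no run of 30 bases with a probe of another name.

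Rps15, a 40S protein near the decoding site that is needed for export of the small subunit, had log2 signals of 15.11, 14.90 and 15.10 in tolerant cells and 15.91, 15.68 and 15.59 in acute cells. In untreated cells they were 15.83, 15.45 and 15.52, again without overlap with tolerant cells. It fell by 0.69 ± 0.15 and 0.56 ± 0.15 against acute and untreated cells (adjusted p = 0.00764 and 0.0219). The call against acute cells held in all 22 settings and that against untreated cells in 19. A further Rps15 probe gave -0.68 and -0.53.

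Rpl13, a 60S protein, was the fourth member whose fall against acute cells held in all 22 settings. Its log2 signal was 16.67, 16.68 and 16.66 in tolerant cells, against 17.43, 17.34 and 17.04 in acute cells, a fall of 0.60 ± 0.14 (adjusted p = 0.0105). Rpl10a, a 60S protein found in only part of the ribosomes of mouse stem cells, was at 16.47, 16.40 and 16.29 in tolerant cells and 17.28, 17.06 and 16.75 in acute cells, a fall of 0.64 ± 0.16 (adjusted p = 0.0145). Neither gene's tolerant arrays overlapped its acute arrays. The Rpl10a probe shares 30 bases with the probe of its pseudogene Rpl10a-ps1.

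Other members that fell against acute cells included Rpl21, Rps7, Rps18, Rps3a, Rps16, Rpl26, Rps9, Rpl10, Rpl18 and Rpl15, with log2 fold changes of -0.66 to -0.40. The Rpl21 probe was far dimmer than most members' probes, at 7.52, 7.41 and 7.53 in tolerant and 8.33, 8.23 and 7.86 in acute cells. Rps7, a 40S protein that also binds Mdm2, was at 15.43, 15.49 and 15.24 in tolerant cells and 16.31, 16.16 and 15.64 in acute cells, and fell by 0.65 ± 0.19 (adjusted p = 0.031). Rpl15, an early-assembling 60S protein, was called at an adjusted p of 0.048 and held in 7 of 22 settings. Those of Rpl21, Rps7 and Rpl26 held in 16 each.

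Tolerant against untreated cells asks whether the level after LPS, rest and LPS again differs from that before any LPS. The members' median was -0.33, or 0.795 of the untreated level, with 77 of 82 below 0, while the median over all genes was -0.02. In limma 9 members (11%) fell and 0 rose, where 8.65% of all genes were called lower and 11.3% higher, so the share lay near the background. At an unadjusted p under 0.05 there were 23 of the 82 members and 6423 of all 20491 genes. With the block 46 members (56.1%) were lower and 2 higher, where both shares were 18.8% over all genes, and with the slide as a block 53 were lower, where the share was 19.9%. The arrays of 31 members did not overlap, all lower in tolerant cells (37.8%, against 17.2% of all genes). The tolerant arrays enter this comparison and the one with acute cells.

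The 9 genes included Rpl22l1, Rpl3, Rpl10a, Rpl21, Rps7, Rps15, Rps18 and Rpl13. All 9 had also fallen against acute cells. Rpl10a fell by 0.65 ± 0.16 (adjusted p = 0.0137) and Rps18, a 40S protein of the subunit's head, by 0.52 ± 0.15 (adjusted p = 0.0279). Rps18 was at 15.30, 15.21 and 15.23 in tolerant cells and 15.96, 15.68 and 15.65 in untreated cells, without overlap. Rps7 lay just inside the threshold, falling by 0.59 ± 0.19 (adjusted p = 0.05, rounded). Rpl10, which completes the 60S subunit late in assembly, lay just outside, with -0.46 ± 0.15 (adjusted p = 0.0566). Within experiments 1, 2 and 3 the members' median was -0.48, -0.19 and -0.30. It was -0.21 without untreated array 1 and -0.22 without tolerant array 3. The 393 other genes in the same signal range had a median of -0.17. Of these, 13 (3.31%) were called lower and 75 (19.1%) higher, against 8.65% and 11.3% of all genes. With the block 117 (29.8%) were lower and 87 (22.1%) higher, against 18.8% each.

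No paralog other than Rpl22l1 was called in tolerant against acute cells. Rps27l, a p53-responsive copy of Rps27, had log2 signals of 15.13, 15.21 and 14.64 in tolerant cells and 14.82, 14.78 and 14.57 in acute cells. The ranges overlapped, and the log2 fold change was 0.27 ± 0.18 (limma, adjusted p = 0.309). Rps27 itself was at -0.50 ± 0.23 (adjusted p = 0.148, and 0.00682 with the block), though its chosen probe maps to chromosome 9 while the gene lies on chromosome 3. Rpl7l1, named after the 60S protein Rpl7, was at 9.32, 9.36 and 9.23 in tolerant cells and 9.34, 9.17 and 8.89 in acute cells. Its log2 fold change was 0.17 ± 0.17 (adjusted p = 0.494), and that of Rpl7 was -0.41 ± 0.23 (adjusted p = 0.234).

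Rps4y2, which RefSeq now lists as Rps4l, was at 10.08, 9.30 and 9.31 in tolerant cells and 9.75, 8.82 and 8.82 in acute cells. Array 1 was highest in both groups, so the ranges overlapped. The log2 fold change was 0.43 ± 0.38 (adjusted p = 0.448, and 0.00706 with the block), against -0.52 ± 0.23 for Rps4x (adjusted p = 0.138, and 0.00425 with the block). Rpl39l, known for its role in the testis, was at 0.23 ± 0.55 (adjusted p = 0.798) and Rpl39 at -0.42 ± 0.25 (adjusted p = 0.246). Rpl36al was at -0.40 ± 0.31 (adjusted p = 0.39) and Rpl36a at -0.56 ± 0.25 (adjusted p = 0.127). Under percentile scaling 4 of the 6 tested paralogs had log2 fold changes above 0 in tolerant against acute cells. Of the other 76 members 0 did, but in the authors' values some of these, such as Rpl19 and Rpl41, had a higher mean in tolerant cells. Rpl39l, Rpl7l1 and Rps4y2 were dim, with tolerant means of 7.15, 9.30 and 9.57. The members' median on tolerant arrays was 16.18 to 16.46. The part of the signal level in this was not tested. Differences in change between a paralog and its namesake were not tested.

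**Figure D3:**
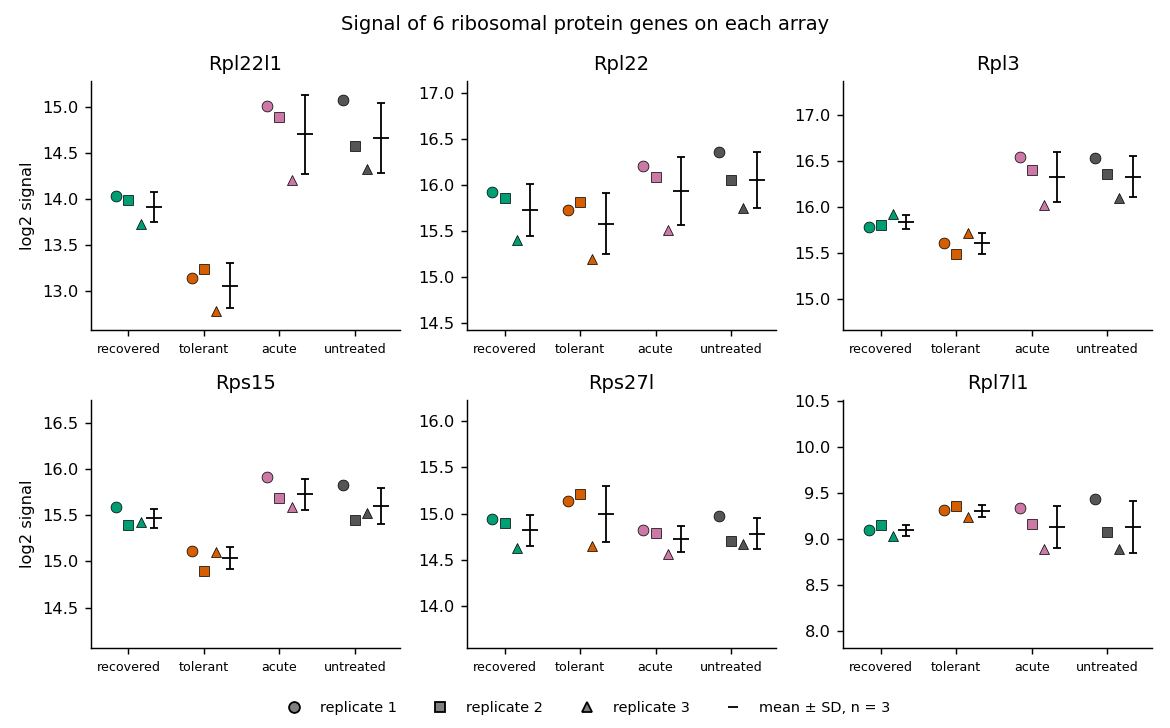
Log2 signal on each of the 12 arrays for Rpl22l1, Rpl22, Rpl3, Rps15, Rps27l and Rpl7l1, in recovered, tolerant, acute and untreated cells. Symbols mark the replicate number, and black bars the mean ± SD of 3 arrays. Each panel spans 2.7 log2 units but starts at its own level, and the tolerant arrays lie apart from acute and untreated arrays for Rpl22l1, Rpl3 and Rps15.

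Several members have known roles outside the ribosome or are used as reference genes. Rplp0, a P stalk protein and a common reference gene, was at 18.15, 18.21 and 17.61 in tolerant cells and 18.45, 18.37 and 17.83 in acute cells, a log2 fold change of -0.23 ± 0.23 (limma, adjusted p = 0.516). In the other 5 comparisons its log2 fold change lay between -0.12 and 0.13. Rplp1 and Rplp2, its stalk partners, were at -0.39 ± 0.16 and -0.32 ± 0.17 (adjusted p = 0.117 and 0.199). With the block these became 0.00709 and 0.0199, and that of Rplp0 0.0797.

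Rpl13a, a 60S protein that in human monocytes leaves the ribosome to block translation of inflammatory mRNAs, was at 16.33, 16.42 and 15.96 in tolerant cells and 16.74, 16.68 and 16.12 in acute cells. The log2 fold change was -0.28 ± 0.21 (adjusted p = 0.376). Rps6, the substrate of the S6 kinases downstream of mTOR, was at 16.44, 16.34 and 16.22 in tolerant cells and 17.19, 16.95 and 16.53 in acute cells. Its arrays did not overlap, and the log2 fold change was -0.56 ± 0.21 (adjusted p = 0.0742, and 0.00492 with the block). Rpl5 and Rpl11, which bind Mdm2 together when ribosome assembly is disturbed, were at -0.59 ± 0.28 and -0.19 ± 0.22 (adjusted p = 0.161 and 0.562). Rps19 and Rpsa, whose human genes are mutated in Diamond-Blackfan anaemia and in isolated congenital asplenia, were at -0.44 ± 0.19 and -0.36 ± 0.24 (adjusted p = 0.12 and 0.309).

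Under percentile scaling the members' median deviation in recovered cells lay between those of tolerant and acute cells. Against tolerant cells the members' median log2 fold change was 0.19, with 76 of 82 above 0, while the median over all genes was 0.09. In limma 2 members rose (2.44%) and 0 fell, where 11.1% of all genes were called higher and 9.50% lower. At an unadjusted p under 0.05 there were 8 of the 82 members and 7367 of all 20491 genes. With the block 21 members (25.6%) were higher and 1 (Rps4y2) lower, where the shares were 25.4% and 19.8%, and with the slide as a block 26 were higher, where the share was 22.3%. The arrays did not overlap in 22 members that were higher (26.8%, against 25% of all genes). With the blocks and by overlap these shares lay near the background, and in the fit without a block the share lay below it. Within slides, the median was 0.19 on the slide with 2 recovered arrays and 1 tolerant array, and 0.20 on the slide of experiment 3. It was 0.09 without tolerant array 3 and 0.30 without recovered array 3. The 393 other genes in the same signal range had the same median, 0.19.

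Rpl22l1, 1 of the 2 that rose, rose by 0.86 ± 0.25 (limma, adjusted p = 0.0336). Its call held in 15 of 22 settings, and was lost when any recovered or any tolerant array was left out. Rps15 and Rps16, both 40S proteins, lay just outside with 0.43 ± 0.15 and 0.41 ± 0.15 (adjusted p = 0.0651 and 0.0724).

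Against untreated cells, the recovered cells had a members' median of -0.11, with 62 of 82 below 0, while the median over all genes was 0.07. Here 2 members fell (2.44%) and 0 rose, where 16.8% of all genes were called lower and 18.6% higher. With the block 7 were lower, where the share was 24.8%, and 6 did not overlap, all lower, against 22.4% of all genes. Rpl22l1 fell by 0.75 ± 0.25 and Rpl3 by 0.50 ± 0.17 (limma, adjusted p = 0.0375 and 0.0408). Rpl3 was at 15.78, 15.80 and 15.92 in recovered cells and 16.54, 16.35 and 16.10 in untreated cells, without overlap. Both calls were lost without untreated array 1 or 2, and without any recovered array. Rps26, a 40S protein at the mRNA exit site, was at 16.51, 16.55 and 16.40 in recovered cells and 17.04, 16.73 and 16.76 in untreated cells. The log2 fold change was -0.36 ± 0.16 (adjusted p = 0.0947, and 0.0183 with the block), and its probe shares 30 bases with a probe of another name. Within slides the members' median was -0.01 on the slide with 2 recovered arrays and 1 untreated array, and -0.08 on the slide of experiment 3. The median was 0.02 without untreated array 1, -0.21 without untreated array 3 and -0.01 without recovered array 3, so its sign rested on single arrays.

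Against acute cells, the recovered cells had a median of -0.19 over the members, with 77 of 82 below 0, and 0.05 over all genes. In limma 0 members were called, where 0.571% of all genes were called lower and 1.48% higher. At an unadjusted p under 0.05 there were 4 of the 82 members and 2900 of all 20491 genes. With the block Rpl22l1 and Rps26 were lower, where the share of all genes was 4.72%, and the arrays of 10 members did not overlap, all lower (12.2%, against 7.33% of all genes). Rpl22l1 was at -0.79 ± 0.25 (adjusted p = 0.158), Rpl3 at -0.49 ± 0.17 (adjusted p = 0.201) and Rpl18, a 60S protein, at -0.36 ± 0.13 (adjusted p = 0.22). Within slides the median was -0.21 and -0.06. It was -0.08 without acute array 1, -0.35 without acute array 3 and -0.11 without recovered array 3.

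Acute against untreated cells showed no called member at 4 h of LPS, while 14.3% of all genes were called higher and 14.9% lower. At an unadjusted p under 0.05 there were also 0, against 7815 of all 20491 genes. The members' median was 0.10 and that of all genes 0.02, with log2 fold changes of -0.12 to 0.46. With the block Rpl24, Rpl15 and Rpl39l were higher, where the share of all genes was 21.2%. The 3 with the smallest p were Rpl15, at 0.25 ± 0.13, Rpl24, at 0.32 ± 0.22, and Rpl37a, at 0.18 ± 0.14 (limma, adjusted p = 0.191, 0.345 and 0.376). Rpl24, a 60S protein that helps form the bridge between the subunits, was at 17.37, 17.22 and 16.70 in acute cells and 17.06, 16.73 and 16.55 in untreated cells, with overlap. Within experiments 1, 2 and 3 the members' median was 0.08, 0.21 and -0.03. It was -0.03, 0.03 and 0.27 without acute array 1, 2 or 3, and 0.21 and -0.03 without untreated array 1 or 3, so its sign rested on single arrays.

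Over the 4 groups, limma's F-test called 12 members, where the share of all genes was 40.1%, and 59 with the block, where it was 67.0%. The 10 members with the smallest p included Rpl22l1, Rpl3, Rps15, Rpl10a, Rpl13, Rps18, Rpl18, Rps16 and Rpl21, the first at an adjusted p of 0.00084.

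The scaling between arrays changed the sign of some of these medians. The main values subtract each array's 75th percentile, while quantile normalization forces all arrays to 1 distribution. The authors' deposited log2 values, which have the same median on every array, were a further alternative. In tolerant against untreated cells the members' median was -0.33, -0.34 and -0.39 under the 3 scalings, and the counts called lower were 9, 25 and 64, where the shares of all genes were 8.65%, 11.7% and 20.5%. In tolerant against acute cells it was -0.41, -0.20 and -0.17, with 16, 10 and 22 called lower, where the shares were 10.7%, 10.2% and 16.2%.

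The recovered cells differed most between scalings. Against untreated cells their median was -0.11, -0.33 and -0.43, with 2, 29 and 72 members called lower, where the shares were 16.8%, 23.6% and 33.3%. Against tolerant cells the median turned sign, being 0.19, -0.01 and -0.06, and in acute against untreated cells it was 0.10, -0.13 and -0.21, with 0, 1 and 27 called lower (28.5% of all genes in the authors' values). Under quantile normalization the median of all genes itself moved by over 0.1, to -0.10 (main value 0.02) in acute against untreated cells and to -0.06 (main value 0.07) in recovered against untreated cells. Under each scaling the medians of tolerant against acute and tolerant, or recovered, against the untreated cells, and of recovered against acute cells, were below 0 and below those of all genes. The changes of Rpl22l1 kept their direction in tolerant against both acute and untreated cells, and in recovered against tolerant cells, where its log2 fold change ranged over 0.71 to 0.95 across the 22 settings.

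**Figure D4:**
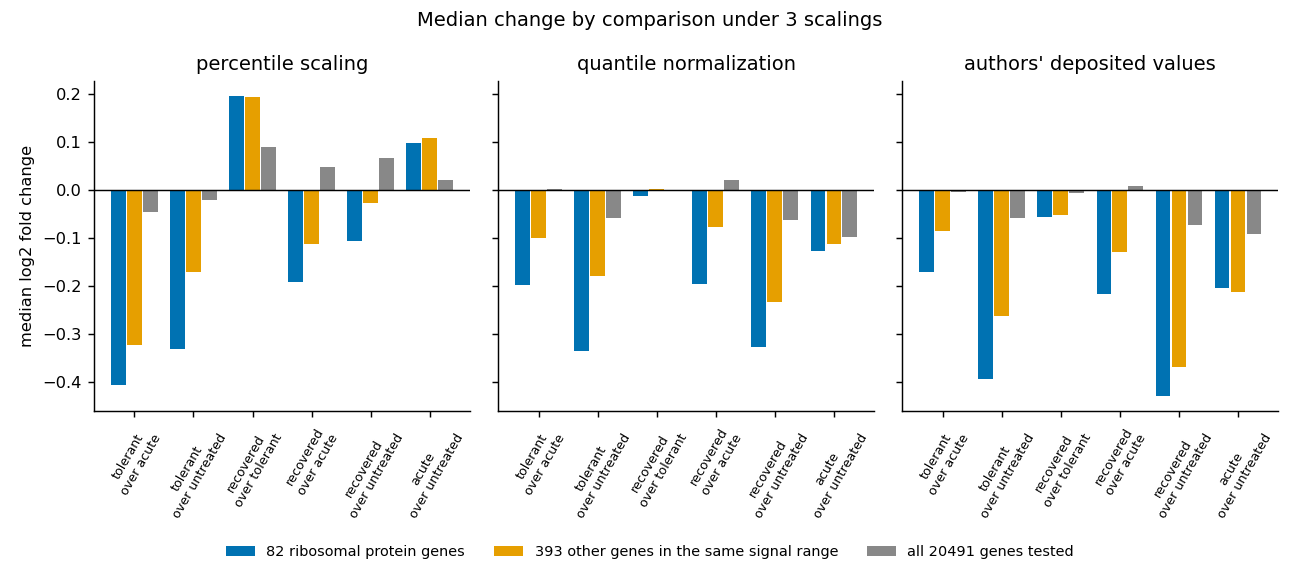
Bars give the median log2 fold change of the 82 ribosomal protein genes, of 393 other genes in the same signal range and of all 20491 genes tested, for 6 comparisons under percentile scaling, quantile normalization and the authors' deposited values. The members' bar for recovered over tolerant cells is 0.19 in the first panel and -0.01 and -0.06 in the others.

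Many members had more than 1 probe, which allowed a check within genes. For 54 members 93 further probes passed the filter on dim probes, and in tolerant against acute cells all 93 had the sign of the chosen probe, with a median of -0.44. In tolerant against untreated cells 92 did, with a median of -0.38, and in recovered against tolerant cells 83 did. The chosen probe of 31 members shares 30 bases with a probe of another name, mostly predicted genes and pseudogenes, so these signals may mix loci. Which exon or untranslated region a probe lies in was not analysed here.

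Genes that work beside the ribosomal proteins were taken as lists for comparison. The proteins of the mitochondrial ribosome, which translate the mitochondrial genome's few mRNAs and are encoded by Mrpl and Mrps genes, had medians on the other side of 0 from the cytosolic ones in 4 of the 6 comparisons under percentile scaling. Under quantile normalization and in the authors' values this was so in 1, tolerant against acute cells, where the mitochondrial median was 0.29 and 0.25. In tolerant against acute cells 14 of 77 tested rose (18.2%, against 12% of all genes) and 0 fell (34 and 2 with the block), with a median of 0.27. In recovered against tolerant cells 0 rose and 11 fell (14.3%, against 9.50% of all genes), or 0 and 32 with the block, with a median of -0.28. Without the block the other shares of called genes lay near or below those of all genes. With it 23.4% were higher in tolerant against untreated cells, against 18.8% of all genes. Against untreated cells 33.8% were lower in recovered and 24.7% in acute cells with the block, against 24.8% and 22.4% of all genes. In tolerant against untreated cells 4 rose (5.19%, against 11.3%) and 0 fell (18 and 2 with the block), with a median of 0.11. In acute against untreated cells 1 rose and 10 fell (13%, against 14.9%), or 3 and 19 with the block, with a median of -0.11. In recovered against untreated cells 1 rose and 12 fell (15.6%, against 16.8%), or 7 and 26 with the block. The median there was -0.16, on the same side of 0 as that of the cytosolic genes, as was the -0.02 in recovered against acute cells, where 0 were called (1 lower with the block). Whether the mitochondrial and the cytosolic lists differ was not tested.

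Mrpl47, a protein of the large mitochondrial subunit, had log2 signals of 11.62, 11.50 and 11.35 in tolerant cells, against 10.63, 10.40 and 10.66 in acute cells. The groups did not overlap, and it rose by 0.93 ± 0.16 (limma, adjusted p = 0.00224). Mrpl51 rose by 0.73 ± 0.13, Mrpl49 by 0.74 ± 0.14 and Mrpl42 by 0.75 ± 0.19 (adjusted p = 0.00302, 0.00384 and 0.0152). Mrpl41, which fell in recovered against untreated cells by 1.01 ± 0.14 (adjusted p = 0.000201), was at 11.58, 11.86 and 11.53 in recovered cells and 12.57, 12.54 and 12.88 in untreated cells. It fell against tolerant cells too, by 0.70 ± 0.14 (adjusted p = 0.00609).

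**Figure D5:**
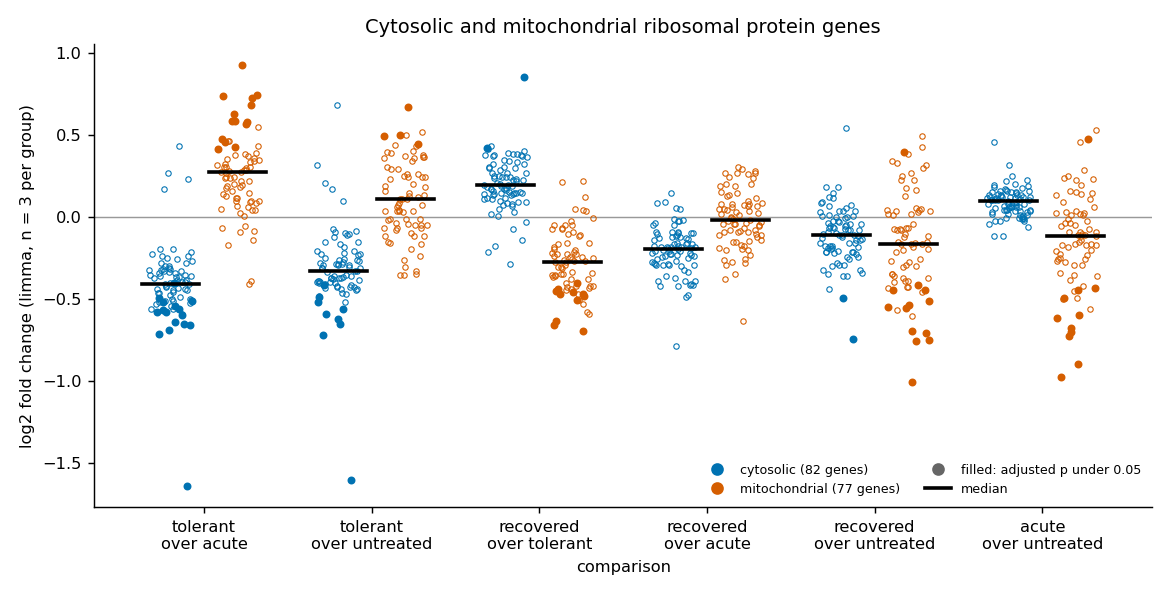
Log2 fold changes of 82 cytosolic and 77 mitochondrial ribosomal protein genes in 6 comparisons, with filled points at an adjusted p under 0.05 and black bars at the medians. In tolerant over acute cells the cytosolic median is -0.41 and the mitochondrial median 0.27.

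Of 21 elongation factor and other TOP mRNA genes, 2 fell and 0 rose in tolerant against acute cells (9 lower and 1 higher with the block), with a median of -0.27. The 2 are 9.52% of the list, near the 10.7% of all genes. With the block the 9 are 42.9%, against 23.0%. Eef1b2, a subunit of the elongation factor 1 exchange complex, was at 15.12, 15.07 and 14.98 in tolerant cells and 16.22, 15.90 and 15.62 in acute cells, and fell by 0.85 ± 0.20 (limma, adjusted p = 0.0116). Pabpc1, the cytoplasmic poly(A)-binding protein, fell by 0.56 ± 0.15 (adjusted p = 0.0207) and rose by the same amount, 0.56 ± 0.15, in acute against untreated cells (adjusted p = 0.0152). Gas5, a noncoding TOP transcript that hosts small nucleolar RNAs, fell by 1.08 ± 0.35 in tolerant and by 1.56 ± 0.35 in recovered against untreated cells (adjusted p = 0.0496 and 0.00458). In tolerant against untreated cells 2 of the list fell (9.52%, against 8.65% of all genes). With the block 6 were lower (28.6%, against 18.8%) and 1 higher. In recovered against untreated cells 1 of the list fell (4.76%, against 16.8%). With the block 5 were lower there (23.8%, against 24.8%) and 1 higher. None was called in recovered against tolerant or against acute cells without the block. With it 2 were higher in the first (9.52%, against 25.4% of all genes) and 3 lower in the second (14.3%, against 4.72%).

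Of 49 ribosome assembly factors and RNA polymerase I genes, 5 rose and 2 fell in acute, 4 rose and 0 fell in tolerant, and 6 rose and 6 fell in recovered against untreated cells. With the block these were 15 and 8, 7 and 4, and 11 and 12. Without it, the shares in acute cells were 10.2% and 4.08%, against 14.3% and 14.9% of all genes, and in recovered cells 12.2% each, against 18.6% and 16.8%. Between tolerant and acute cells 0 rose and 1 fell (4 and 7 with the block), in recovered against tolerant cells 1 rose and 3 fell (3 and 10 with the block), and in recovered against acute cells 0 were called (1 higher and 2 lower with the block). The shares without the block lay below those of all genes in each comparison. With the block 30.6% were higher in acute against untreated cells, against 21.2% of all genes. In recovered against tolerant cells 20.4% were lower with the block, against 19.8%. The other shares with the block lay near or below those of all genes. Wdr43, a nucleolar factor of the small subunit, rose by 2.07 ± 0.18 in acute against untreated cells (adjusted p = 5.46e-06) and fell by 1.19 ± 0.18 in tolerant against acute cells (adjusted p = 0.000902). Ubtf, which activates RNA polymerase I at ribosomal DNA, rose by 1.66 ± 0.25 in tolerant and by 2.26 ± 0.25 in recovered against untreated cells (adjusted p = 0.000691 and 3.21e-05). Dkc1, the pseudouridine synthase of ribosomal RNA, fell by 1.29 ± 0.27 in recovered against untreated cells (adjusted p = 0.00321).

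Of 24 genes of mTOR, Myc and initiation control, 3 rose and 7 fell in acute, 2 rose and 4 fell in tolerant, and 3 rose and 9 fell in recovered against untreated cells. With the block these were 7 and 7, 3 and 10, and 6 and 11. Without it, the shares in acute cells were 12.5% and 29.2%, against 14.3% and 14.9% of all genes. In tolerant cells they were 8.33% and 16.7%, against 11.3% and 8.65%, and in recovered cells 12.5% and 37.5%, against 18.6% and 16.8%. Between tolerant and acute cells 5 rose and 3 fell (20.8% and 12.5%, against 12% and 10.7% of all genes), or 7 and 7 with the block. In recovered against tolerant cells 3 rose and 2 fell (12.5% and 8.33%, against 11.1% and 9.50% of all genes), or 3 and 6 with the block. In recovered against acute cells 0 were called (2 lower with the block). Larp1, the RNA-binding protein of TOP mRNAs, was at 14.49, 14.45 and 13.97 in tolerant cells, 15.57, 15.51 and 14.91 in acute cells and 13.81, 13.50 and 13.12 in untreated cells. It rose by 1.86 ± 0.24 in acute against untreated cells and fell by 1.03 ± 0.24 in tolerant against acute cells (limma, adjusted p = 0.000141 and 0.0111). Max, the partner of Myc, fell in tolerant against acute cells by 1.20 ± 0.19 (adjusted p = 0.00117). Eif2ak3, the kinase PERK that restrains initiation under stress of the endoplasmic reticulum, rose in tolerant against acute cells by 1.68 ± 0.35 (adjusted p = 0.00603). Eif2ak2, the interferon-induced kinase PKR, rose in acute against untreated cells by 3.37 ± 0.18 and in tolerant against acute cells it fell by 1.54 ± 0.18 (adjusted p = 1.34e-07 and 0.000211). The relation of these genes to the ribosomal protein mRNAs was not tested.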

How the data were processed

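Each of the 12 samples is 1 single-colour Cy3 array with 62976 spots. The deposited spot intensities are background-subtracted by Agilent Feature Extraction 10.7.3.1, with probe positions on mm9, per the file headers. The authors' deposited log2 value table, made with limma per the submitters' processing notes (background correction not given in the sources used here), has the same median (5.34) on every array and was an alternative. It correlated best with its own array for 12 of 12 arrays (r 0.973 to 0.988).

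Control spots and outlier flags were left out, spots of a probe were averaged, and log2 signals were scaled by subtracting each array's 75th percentile. A probe was kept (28056 of 55681) if some group had it well above background on each of its 3 arrays. The brightest probe stood for each of 20491 genes. All arrays entered 1 limma 3.58.1 fit (R 4.3.3, 8 residual degrees of freedom) with 2-sided tests, Benjamini-Hochberg adjustment over all genes and a threshold of 0.05. Figures were drawn with matplotlib 3.10.9 and tables made with pandas 2.3.3 and numpy 2.4.6 under Python 3.11.15. The number of arrays limits the precision. On simulated data for acute over untreated (20491 genes), 2, 28, 43 and 49 of 50 genes were called at log2 changes of 0.5, 1, 2 and 3, and 4 of 20291 unchanged genes. The simulation left 20291 of 20491 genes unchanged, while the arrays gave 14.3% of genes called higher and 14.9% lower in this comparison. Whether its rates hold for the fit of the arrays was not tested.

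Same-numbered arrays deviated together from their group means (18 pairs, r 0.276 to 0.773, median 0.45). Over 36 pairs of different number r was -0.65 to 0.34, with a median of -0.37. The highest of these, acute 2 with recovered 1, shared a slide. Because deviations are taken from each group's own mean, the values for same and different numbers are not independent. The pairing comes from these correlations over the numbers in the labels. Alternatives were quantile normalization, median centring, normexp background, the authors' values, no filter, the mean of all probes, a variance trend, number and slide blocks, and leaving out arrays.

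Members and lists were chosen with earlier results of these data known. Named were a panel of 9 members with known other roles, paralogs with their namesakes, up to 5 called members per direction and comparison (or the 3 with the smallest p), the 10 members with the smallest F-test p and up to 4 called genes per list. Of the members that were called, others are named for completeness, after their values were seen. Some items are counted but not reported by name here.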

Additional observations from a re-analysis of the deposited data

How the results depend on the processing

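Counts of called ribosomal protein genes moved with the fit, the scaling and single arrays, and the cause was not tested. The shares of all genes moved too. In tolerant over untreated, 8.65% were lower in the main fit, 18.8% with the replicate block and 19.9% with the slide block. The share was 11.7% under quantile normalization and 20.5% in the authors' values. The counts below lack such shares, so they do not show whether the members moved more than other genes. With the replicate block, 67 members were lower and 1 higher in tolerant over acute, 46 lower and 2 higher in tolerant over untreated, 21 higher and 1 lower in recovered over tolerant, 7 lower and 1 higher in recovered over untreated, 2 lower in recovered over acute, 3 higher in acute over untreated and 59 called over the 4 groups. With the slide block these were 70, 53, 26, 6, 1, 2 and 60 in the same order, for the first direction named. In the authors' values 1 was higher in tolerant over acute, beside the members called lower that were counted above with the scalings. In those values 64 were lower in tolerant over untreated, 1 higher and 5 lower in recovered over tolerant, and 72 lower in recovered over untreated. There were also 5 lower in recovered over acute, 27 lower in acute over untreated and 70 called over the 4 groups. Under quantile normalization they were 10 lower and 1 higher in tolerant over acute, 25 lower in tolerant over untreated, 1 higher in recovered over tolerant, 29 lower in recovered over untreated, 1 lower in acute over untreated and 23 over the 4 groups. In tolerant over untreated, 17 were lower with normexp background, 14 with a variance trend, 14 without the second scan day and 5 with no filter. Over the 4 groups there were 20 with normexp, 22 without that day and 6 with no filter. In recovered over untreated 4 were lower with normexp, 4 with the mean of all probes and 0 with no filter. In recovered over tolerant 4 were higher with the trend, 1 without that day and 0 with no filter, and in tolerant over acute 36 were lower without that day. Leaving out 1 array gave 4 to 40 lower in tolerant over acute, 2 to 11 lower in tolerant over untreated, 0 to 3 higher in recovered over tolerant, 0 to 2 lower in recovered over untreated and 3 to 20 over the 4 groups. The lowest of the first came without acute array 1 and the highest without acute array 3, and tolerant over untreated gave 2 without untreated array 1. Among 34 named members, a sign change in which the value passed the threshold before or after was found only in the authors' values. In acute over untreated these were Rpl22l1 (-0.40), Rpl36a (-0.26), Rpl36al (-0.39), Rpl39 (-0.28), Rps18 (-0.31), Rps19 (-0.33) and Rps7 (-0.25). In recovered over untreated they were Rpl11 (-0.29), Rpl37a (-0.29), Rplp0 (-0.38), Rps16 (-0.32) and Rps27l (-0.35), and in recovered over tolerant Rplp0 (-0.33). Of 4488 comparisons of a named member with an alternative, 3931 kept direction and side of the threshold, 199 became called, 108 lost the call and these 13 turned sign. A further 237 turned sign without passing the threshold before or after, 45 of them under quantile normalization and 33 in the authors' values.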

Other observations

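Names marked as ribosomal protein pseudogenes were left out of the members. Of 48 on the array 42 passed the filter on dim probes. In tolerant over acute cells all 42 had a log2 fold change below 0, with a median of -0.43, and 6 were called lower in limma (14.3%, against 10.7% of all genes), or 32 with the replicate block. Rps15-ps2, Rpl13-ps5, Rpl10a-ps1 and Rps18-ps1 had log2 fold changes of -0.68, -0.67, -0.61 and -0.59. In tolerant over untreated cells 6 were called lower (14.3%, against 8.65% of all genes), or 29 with the block, with a median of -0.37, in recovered over untreated cells 1 (Rpsa-ps4, -0.46), and in the other comparisons 0 without the block. The chosen probes of Rpl10a, Rpl14, Rpl27, Rpl36 and Rps24 each share 30 bases with a probe named as a pseudogene of that gene. For these the signal of pseudogene and parent gene cannot be told apart. Those of Rps15, Rpl13 and Rps18 share no run of 30 bases with a probe of another name, and shorter runs were not searched.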
